A study of Mus musculus with 6 samples.

Results

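The comparison is between the heart ventricles of wild type (WT) mice at 4 weeks (4w) and at postnatal day 10 (P10), with 3 RNA-seq libraries at each age. Its members are the genes whose deposited normalized count averaged at least 10 over the 18 libraries of the series, without those on the X and Y chromosomes. That rule kept 12581 of the 24391 gene entries. It left out 451 genes of the sex chromosomes among the 13032 that reached the minimum, and it kept 39 entries with no chromosome in the annotation used. The minimum used the level over all groups and not the difference between the ages. Just inside it were Lpxn and H2-Ob, each with a mean of 10, and just outside were H2-DMb1 and 2010001A14Rik, with means of 9.996 and 9.993.

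The mice were of the C57BL/6 background, were housed in a 12/12 light and dark cycle with free access to food, and gave total RNA from cardiac ventricles. The groups used are 4w WT and P10 WT, and beside them 20-week-old (20w) WT and the 4w and P10 mice with loss of function of the transcription factor gene Klf15 (KO), 3 libraries each. All groups share strain and tissue, and no treatment is named. How the KO allele was made, the sex of the mice and the hour of collection were not stated in what was available for this work. The labels call the 3 libraries of a group replicates without saying that they came from separate animals, so each p-value rests on library-to-library spread alone, which may be partly technical.

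The mouse heart changes its mode of growth soon after birth. Cardiomyocytes, the contractile cells, leave the cell cycle within the first weeks and enlarge from then on, while mitochondria multiply and fatty acids from milk and later from solid food become the main fuel. Fetal isoforms of contractile and metabolic proteins give way to adult ones, the collagen network is laid down, and weaning changes the diet between the ages compared here. The series was made to follow the consequences of Klf15 loss. The wild type mice alone show the maturation against which such a loss is read.

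The 6 WT libraries held 11689856 to 12348671 gene-assigned reads at 4w and 12615972 to 14634030 at P10, and the ribosomal precursor Rn45s took 0.322% to 1.74% of the reads in them. One KO library, 4w KO replicate 2, gave 30.8% of its reads to Rn45s. Log2 values correlated at 0.985 to 0.991 between 4w WT libraries, at 0.988 to 0.992 between P10 WT libraries and at 0.915 to 0.940 between the ages, across genes. On the first principal component of the 18 libraries, which held 68.1% of the variance, 4w WT replicate 1 (10.8) lay nearer to P10 WT (-68.1 to -63.1) than 4w WT replicates 2 and 3 did (24.0 and 27.7). Xist, which is transcribed from the inactive X chromosome in females, was at 0 to 3.33 normalized counts in 4w WT and at 5229 to 11077 in P10 WT libraries. The Y-linked Ddx3y stood at 2397 to 3126 in 4w WT and at 634 to 1112 in P10 WT. Each P10 WT library therefore held female RNA beside male RNA, and so RNA of more than 1 animal, and the 4w WT libraries held no such mixture. Spread between P10 WT libraries is thus not spread between single animals. For genes outside the sex chromosomes the effects of age and of sex make-up cannot be told apart. Genes with near-identical copies, such as the haemoglobins and Eno1, were listed at 0 in all 6 libraries. Of 12 erythroid markers that the table lists, 6 were at 0, and of the 5 that are members 1 was higher (Fech, the last enzyme of haem synthesis) and 2 were lower, among them Slc4a1, the anion exchanger of red cells. The erythroid sum was 2367 to 2532 in 4w WT and 1652 to 1846 in P10 WT, most of it Fech, which other cells express too, and the part of blood in other results was not tested.

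At 4w, 7271 members (57.8%) differed from P10 at an adjusted p under 0.05 (limma on log2 values with a pseudocount of 1, Benjamini-Hochberg over all 13032 genes tested, two-sided). Of all members, 3646 (29.0%) were higher and 3625 (28.8%) were lower at 4w. The change was at least 2-fold for 1831 (14.6%), namely 717 higher (5.7%) and 1114 lower (8.85%), and at least 4-fold for 166 higher and 293 lower. The median change of all members was -0.0025 on the log2 scale, and 9 in 10 members lay between -1.40 and 1.09. With every library scaled to the same total of reads instead of the authors' size factors, that median shifted to -0.25, 1536 members were higher and 4580 lower, and 25.1% instead of 50.1% of the calls were higher. All changes below are therefore relative to the typical gene, and where that scaling ends a list's direction it is said. The 3 libraries of each age did not overlap for 64.1% of members, 32.0% in each direction.

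**Figure D1:**
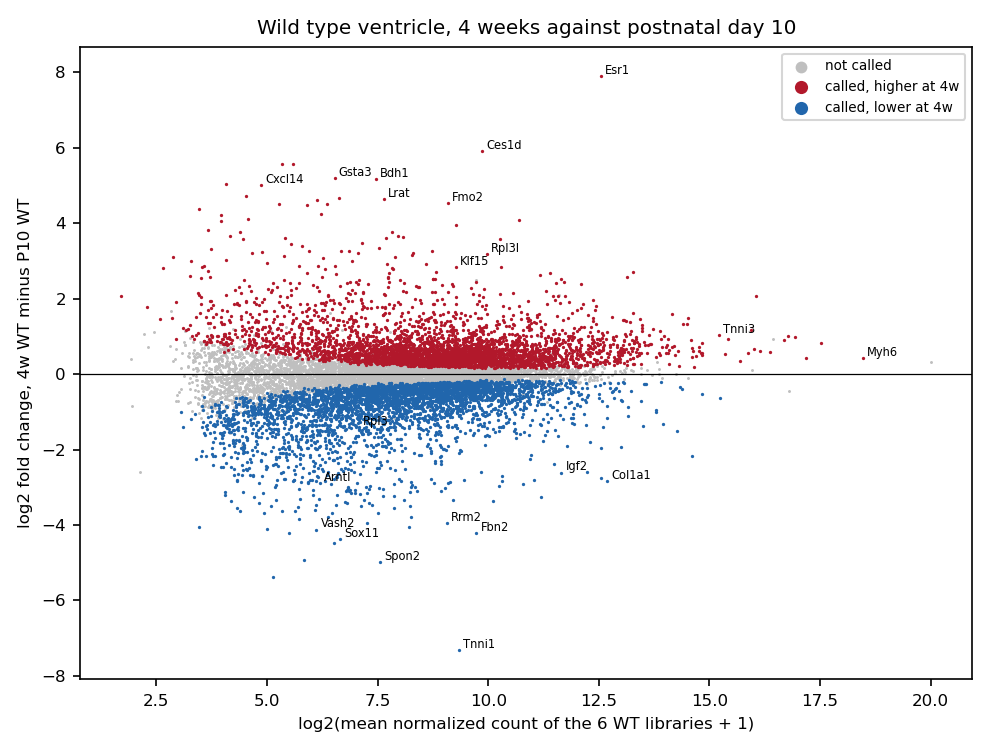
Each point is 1 of the 12581 members, with the log2 mean normalized count of the 6 WT libraries on the x axis and the log2 fold change of 4w WT over P10 WT on the y axis. Red points (3646) were called higher and blue points (3625) lower at 4w, grey points were not called, and named genes of the text are marked, from Esr1 at 7.90 to Tnni1 at -7.32.

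The same ages in KO mice used libraries whose values did not enter the WT fold changes. In them 7305 members were called (58.1%, with 29.9% higher and 28.1% lower at 4w). Of the 7271 members called in WT, 5910 (81.3%) were called the same way in KO and 30 the opposite way, and 7051 (97.0%) had the same sign, against 86.5% of all members. Without 4w KO replicate 2 the share called the same way was 76.0%. Of the 1831 members that changed at least 2-fold in WT, 1675 were called the same way in KO. The KO libraries differed in sex make-up as the WT libraries did, with Xist at 4814 to 6612 normalized counts in P10 KO and 0.524 to 4.21 in 4w KO. Age and sex make-up therefore cannot be told apart in KO either. The age effect itself differed between WT and KO for 159 members (1.26%) when the difference was tested, and for 89 without 4w KO replicate 2. Klf15 stood at 1092, 860 and 1283 normalized counts in 4w WT and at 140, 164 and 145 in P10 WT, a log2 fold change of 2.82 ± 0.20 (SE; adjusted p = 6.3e-10).

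Among the called members with a mean of at least 50 over the 18 libraries and no overlap between ages, the contractile isoform switch of troponin I stood first on the falling side. Tnni1, the slow skeletal troponin I that the fetal heart uses, had 11.1, 13.1 and 1.2 normalized counts in 4w WT libraries, against 1251, 2003 and 600 in P10 WT libraries. All 3 libraries at 4w lay far below all 3 at P10, which themselves spread more than 3-fold. The log2 fold change was -7.32 ± 0.54 (SE; adjusted p = 1.3e-09), and -7.60 in KO. Its adult counterpart Tnni3 rose 2.06-fold, to 45167, 54010 and 55011 in 4w WT, against 23958, 23967 and 26657 in P10 WT (adjusted p = 1.3e-07). No 20w WT library held a read of Tnni1.

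The next largest falls under the same rule, at or below -3.49 on the log2 scale, were developmental, matrix and cell division genes. Sox11, a transcription factor of embryonic progenitors, had 7.8, 11.9 and 5.8 normalized counts in 4w WT, against 163, 232 and 178 in P10 WT. Fbn2, the fibrillin of developing elastic fibres, had 68.8, 89.4 and 101 in 4w WT, against 1787, 1529 and 1520 in P10 WT, and Spon2, a secreted matrix protein, fell with a log2 fold change of -4.99. For none of these did the ages overlap. Vash2, which stimulates vessel growth, fell with a log2 fold change of -4.12 ± 0.42 (SE). Hmmr, Cdca3, Rrm2, Ckap2l, Knstrn, Ckap2 and Iqgap3, genes of nucleotide supply, the mitotic spindle or the cell cycle, completed the 12 largest falls under that rule with log2 fold changes of -4.04 to -3.49 (adjusted p at most 2.3e-07).

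On the rising side stood enzymes of lipid, drug and ketone metabolism. Ces1d, a carboxylesterase that hydrolyses neutral lipids, had 1639, 1844 and 1969 normalized counts in 4w WT, against 34.7, 19.9 and 35.7 in P10 WT. That is a gap without overlap and a log2 fold change of 5.91 ± 0.19 (SE; adjusted p = 3.3e-14). Bdh1, which interconverts the ketone bodies, had 451, 257 and 318 in 4w WT, against 8.4, 11.6 and 5.7 in P10 WT. Gsta3 (glutathione conjugation, log2 fold change 5.20), Fmo2 (flavin monooxygenase, 4.53), Inmt (indolethylamine methylation, 5.56) and Hsd11b1 (reactivation of glucocorticoids, 4.50) rose with them. So did Lrat, which esterifies retinol (4.64), the interferon-inducible Ifi205 (5.55), the chemokine Cxcl14 (5.02) and the channel subunits Cngb3 (4.66) and Kcnv2 (4.60). For these 9 genes the log2 fold change in KO was 3.66 to 5.03. Lrat was the one that did not last: it had 15.9, 7.5 and 20.3 normalized counts in P10 WT, 582, 263 and 306 in 4w WT and 7.8, 18.1 and 28.2 in 20w WT.

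The largest rise of all was that of Esr1, the oestrogen receptor alpha, and it differed between the libraries. They held 30246, 5205 and 346 normalized counts in 4w WT, against 20.6, 10.8 and 14.6 in P10 WT. Every 4w library lay above every P10 library, but the 4w libraries differed among themselves by more than the lowest of them differed from P10. The fitted log2 fold change was 7.90 ± 0.89 (SE; adjusted p = 3.0e-07). It was 6.41 without 4w WT replicate 1 and 9.63 without 4w WT replicate 3, and the highest adjusted p with any library left out was 5.1e-06. The SE and these p-values rest on 1 estimate of spread shared by all groups of the series. They therefore understate the spread among the 4w WT libraries. In 4w KO the values were 52.3, 77.1 and 37.8, and in 20w WT they were 50.1, 31.3 and 29.8.

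**Figure D2:**
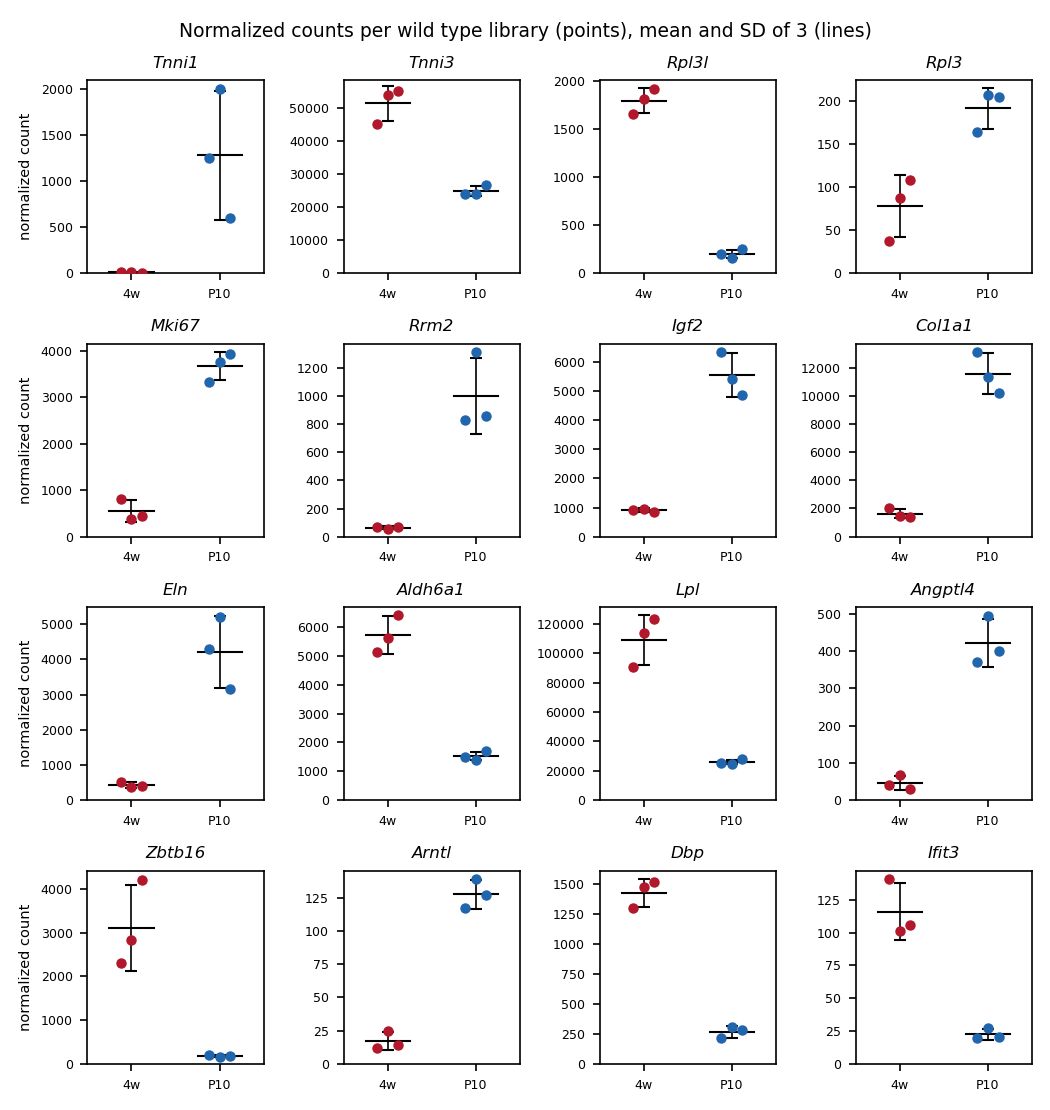
Normalized counts (y axis, from 0) of 16 genes in each WT library, with 4w left of P10; points are libraries, and lines are the mean and SD of 3. Tnni3, Rpl3l, Aldh6a1, Lpl, Zbtb16, Dbp and Ifit3 are higher at 4w, the other 9 are lower, and no gene shown has overlapping ages.

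The described groups of genes are 25 lists of pathways and families from general knowledge. The counts of their called members are to be read against the background of 29.0% higher and 28.8% lower among all members. Counts given with a common total have another background, 1536 higher and 4580 lower of the 12581 members. Since the libraries come from whole ventricle, fewer cells of a type and less RNA per cell cannot be told apart.

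**Figure D3:**
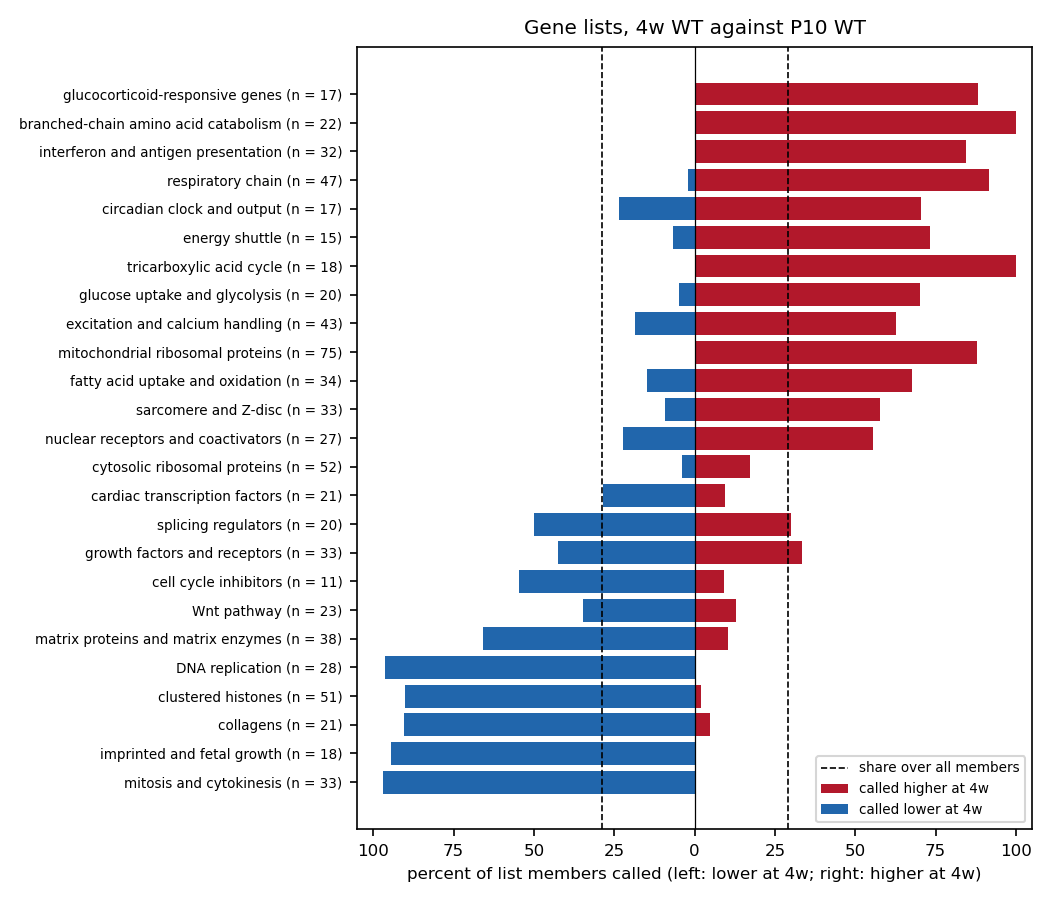
For each list, the bar to the right is the percent of members called higher at 4w and the bar to the left the percent called lower (x axis); the dashed lines are the 29.0% and 28.8% of all members. Division genes, histones, collagens and imprinted growth genes lie to the left, and the respiratory chain, tricarboxylic acid cycle, branched-chain amino acid, mitochondrial ribosome, glucocorticoid-responsive and interferon lists to the right.

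Genes of cell division fell as a body. Of 33 members for mitosis and cytokinesis 32 were lower at 4w and none was higher, with a median log2 fold change of -2.86, and of 28 for DNA replication 27 were lower and none higher, with a median of -1.56. In KO the counts were 31 and 25 lower. Mki67, the proliferation antigen, had 812, 381 and 455 normalized counts in 4w WT, against 3338, 3752 and 3922 in P10 WT. The highest 4w library was thus still more than 4-fold below the lowest P10 library, and 4w WT replicate 1 was the highest of the 4w libraries for this gene and for Top2a, Kif11 and Ccna2. Top2a, which untangles DNA, changed by -2.83 on the log2 scale, the spindle motor Kif11 by -2.77, cyclin A2 (Ccna2) by -3.33 and the cytokinesis scaffold Anln by -3.11 (adjusted p at most 2.0e-09).

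Within the replication list the steepest fall was in nucleotide supply. Rrm2, the cell cycle-regulated subunit of ribonucleotide reductase, had 72.1, 51.2 and 67.3 normalized counts in 4w WT, against 829, 1311 and 860 in P10 WT (log2 fold change -3.94 ± 0.21, SE). The partner subunit Rrm1 fell less, with a log2 fold change of -1.55. Subunits of the helicase that opens origins fell by 1.17 (Mcm4) to 1.90 (Mcm2) on the log2 scale among those named here, which include Mcm5 (-1.89) and Mcm7 (-1.56), and Uhrf1, which copies DNA methylation, by 2.14. The clustered histone genes, whose messages rise in S phase, were lower for 46 of 51 members, with a median of -1.57. The exception that was called higher, Hist2h2be, had overlapping ages and lost its call without 4w WT replicate 2 (adjusted p = 0.061) or replicate 3 (0.083).

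Brakes on the cell cycle did not rise in place of these genes. Of 11 members 6 were lower and 1 was higher. Cdkn1a, the p21 inhibitor, had 98.8, 147 and 195 normalized counts in 4w WT, against 324, 472 and 301 in P10 WT. The pocket protein gene Rbl1 fell (log2 fold change -1.72) while its relative Rbl2 rose (0.71), and Cdkn1c, the imprinted inhibitor of fetal growth, was at 255, 253 and 264 in 4w WT against 293, 267 and 275 in P10 WT (adjusted p = 0.39).

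The promoters of the division genes were searched because this group moved together and is known to carry shared elements. RefSeq promoter windows of 300 bases in GRCm38.p6, from 250 bases before to 50 after the start, were matched by symbol for 9458 members (75.2%). Both strands were searched. The letters TTTGAA, the cell cycle homology region (CHR) bound by the DREAM and MuvB complexes, occurred in 20 of 28 mitosis promoters (71.4%), against 11.3% of all 9458. CCAAT, the box bound by NF-Y, occurred in 22 of the 28 (78.6%), against 38.2%. It was not particular to these genes, with 73.3% of clock promoters (11 of 15) and 54.2% of interferon promoters (13 of 24). The sarcomere, respiratory chain and collagen lists had 34.3% to 43.8%. TTTCCCGC or TTTGGCGC, forms of the E2F site, occurred in 7 of 22 replication promoters (31.8%), against 1 of 28 mitosis promoters (3.57%) and 3.03% of all. These are matches of letters and not measured binding. The genes printed next were chosen among called members because their printed bases hold a CHR match (mitosis) or an E2F match (replication). That they show these letters was therefore fixed by the choice. The 200 bases directly before the start of 2 mitosis genes and 2 replication genes follow, 5′ to 3′ on the strand of the gene, from chr19:37376182-37376381 (Kif11, plus strand), chr11:99024190-99024389 (Top2a, minus strand), chr5:138171884-138172083 (Mcm7, minus strand) and chr8:75109309-75109508 (Mcm5, plus strand). Capitals mark CHR and CCAAT matches in Kif11 and Top2a, and E2F and CCAAT matches in Mcm7 and Mcm5.
Kif11: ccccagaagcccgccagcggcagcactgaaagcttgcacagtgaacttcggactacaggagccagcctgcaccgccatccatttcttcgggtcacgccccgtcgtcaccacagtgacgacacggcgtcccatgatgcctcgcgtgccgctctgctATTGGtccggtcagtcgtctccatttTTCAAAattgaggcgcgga
Top2a: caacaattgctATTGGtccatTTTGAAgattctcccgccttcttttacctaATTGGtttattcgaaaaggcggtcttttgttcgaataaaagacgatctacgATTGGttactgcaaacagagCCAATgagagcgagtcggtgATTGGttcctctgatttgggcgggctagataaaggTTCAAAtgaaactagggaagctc
Mcm7: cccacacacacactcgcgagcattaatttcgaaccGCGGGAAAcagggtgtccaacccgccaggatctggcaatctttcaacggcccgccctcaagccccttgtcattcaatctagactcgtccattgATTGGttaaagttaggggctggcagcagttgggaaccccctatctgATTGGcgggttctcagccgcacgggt
Mcm5: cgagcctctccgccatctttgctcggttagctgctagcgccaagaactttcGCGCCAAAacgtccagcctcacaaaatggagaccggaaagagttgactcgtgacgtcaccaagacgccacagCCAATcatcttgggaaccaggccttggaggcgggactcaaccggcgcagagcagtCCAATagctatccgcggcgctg

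The fetal growth programme of imprinted genes fell with cell division. Of 18 members, which include imprinted genes and fetal RNA-binding proteins, 17 were lower and none was higher, with a median log2 fold change of -2.0, and all 18 were lower in KO. Igf2, the fetal insulin-like growth factor, had 924, 957 and 829 normalized counts in 4w WT, against 6346, 5425 and 4855 in P10 WT. H19, the RNA from the same imprinted locus, had 474, 422 and 353 in 4w WT, against 3356, 3149 and 2802 in P10 WT. Neither gene had overlapping ages, and the log2 fold changes were -2.61 ± 0.16 and -2.90 ± 0.14 (SE). Peg3 (-1.87), Plagl1 (-2.30), Mest (-2.97) and the growth inhibitor Grb10 (-0.85), all imprinted, fell too. Igf2bp3, which binds fetal messages such as that of Igf2, had 8.9, 0 and 3.5 in 4w WT, against 99.4, 139 and 86.8 in P10 WT.

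The contractile apparatus changed less than the cell cycle genes. Of 33 sarcomere and Z-disc members 19 were higher and 3 lower at 4w, with a median of 0.50 on the log2 scale, and 10 were higher with libraries scaled to a common total. Tcap, the titin cap, had 14784, 16345 and 20489 normalized counts in 4w WT, against 2421, 2385 and 3033 in P10 WT. It rose more than any other named sarcomere gene (log2 fold change 2.71 ± 0.12, SE). Desmin (Des, 0.94), the Z-disc proteins Myoz2 (1.03) and Myot (1.98), cardiac troponin T (Tnnt2, 0.93) and the M-band protein Myom1 (0.60) rose as well. The 3 lower members were Tnni1, Tpm2 (-0.90) and the minor myosin Myh7b (-0.45), whose ages overlapped and whose call was lost without 4w WT replicate 2, 4w WT replicate 3 or P10 WT replicate 1 (adjusted p = 0.16, 0.099 and 0.14).

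The myosin heavy chains themselves were less clear. Myh6, the adult alpha chain of the mouse ventricle, had a log2 fold change of 0.43 (adjusted p = 0.012), and its call was lost with a common total (0.18, adjusted p = 0.43) and in the 6 WT libraries alone (adjusted p = 0.14). Myh7, the fetal beta chain, was at 804, 13491 and 1040 in 4w WT, against 474, 1290 and 310 in P10 WT. A single library, 4w WT replicate 2, set its apparent rise: the log2 fold change was 1.96 with it and 0.67 without it (adjusted p = 0.17), and the call was also lost without P10 WT replicate 1 or 3 (adjusted p = 0.056 and 0.095). The same library held 692 normalized counts of Myh2, a skeletal muscle myosin, against 3.3 and 13.9 in the other 4w WT libraries and 3.2 to 3.7 in P10 WT. The sum of 7 skeletal muscle markers was 1158 in it, against 497 and 357 in the others and 292 to 408 in P10 WT. Myh2 is 1 of the 7 and gave most of that 1158. The remaining markers together were not higher in it than in 4w WT replicate 1. The part of this library in other results is given by the values without it. Myh7 was at 8016 to 19622 in 4w KO and 10568 to 16046 in P10 KO.

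Pairs of genes whose products replace one another were compared within each library, so that library scaling cancels. Of 15 pairs with both genes among the members, 11 had an adult or muscle-type share that did not overlap between the ages, and in each of the 11 that share was higher at 4w. For single genes, the ages did not overlap for 64.1% of members. With 3 libraries against 3, the exact two-sided permutation test cannot go below p = 0.1, and all 11 gave that value. Every pair without overlap gives it, so the test adds nothing to the lack of overlap. Per kilobase of transcript, Tnni1 was 0.00180% to 0.0209% of the Tnni1 and Tnni3 total in 4w WT, against 1.88% to 6.64% in P10 WT. Lamin B1 (Lmnb1), the lamin of immature nuclei, was 4.95% to 7.69% of the Lmnb1 and Lmna total in 4w WT, against 25.1% to 26.2% in P10 WT, and the brain-type creatine kinase Ckb was 1.35% to 2.24% of its total with the muscle-type Ckm, against 5.09% to 6.58%.

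Enzyme subunits of energy metabolism showed the same exchange. The liver-type cytochrome oxidase subunit Cox6a1 was 8.37% to 9.03% of its total with the heart-type Cox6a2 in 4w WT, against 24.1% to 27.2% in P10 WT. Cox7a2 was 25.3% to 29.4% of its total with Cox7a1 in 4w WT, against 43.5% to 44.8% in P10 WT, and Cox8a 8.23% to 9.02% of its total with Cox8b, against 16.7% to 20.3%. The ubiquitous hexokinase Hk1 was 31.5% to 36.6% of its total with the insulin-regulated Hk2 in 4w WT, against 49.3% to 54.0% in P10 WT. The liver-type carnitine palmitoyltransferase Cpt1a made up 69.5% to 70.8% of its total with the muscle-type Cpt1b in 4w WT, against 81.2% to 85.0% in P10 WT. In 20w WT it made up 66.3% to 68.5%, so by these counts Cpt1a was the larger share at all 3 ages. The read counter and annotation are not stated, and whether reads of either gene were lost in counting was not tested. Which message is the larger in the tissue is therefore uncertain. The myosin pair (Myh6 and Myh7) and the actin pair (Actc1 and Acta1) overlapped between the ages, with exact p = 0.4 and 0.6, and so did Slc2a4 with Slc2a1 and Myl2 with Myl7 (exact p = 0.2 each).

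**Figure D4:**
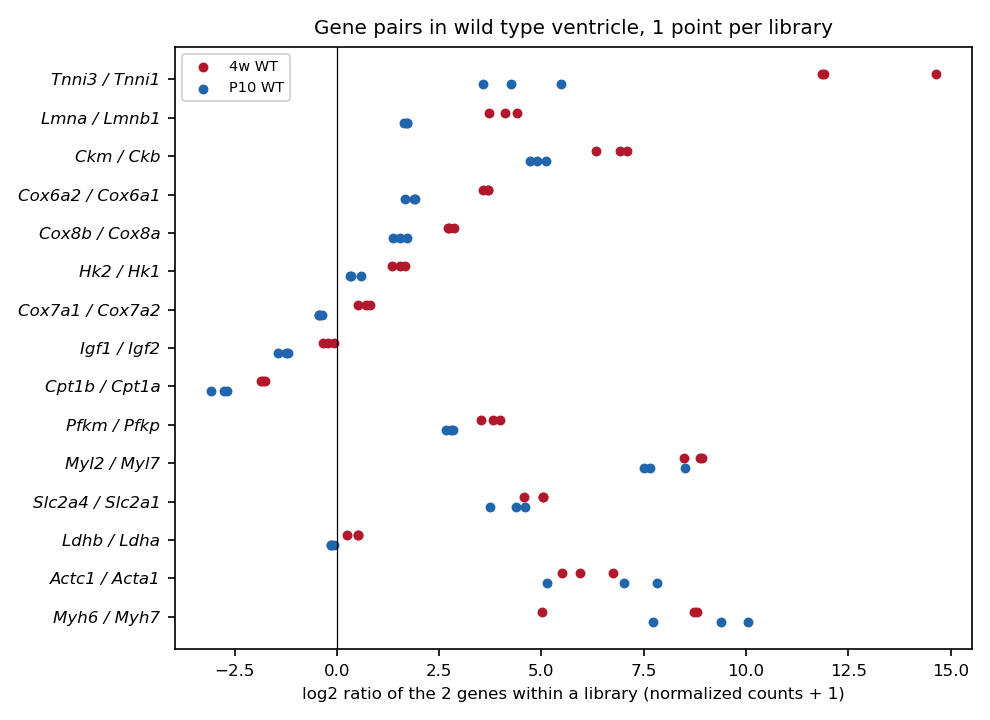
Log2 ratio of the adult or muscle-type gene over its partner within each WT library (x axis) for 15 pairs, with 4w drawn above P10 in each row. In 11 pairs the 3 libraries at 4w lie to the right of the 3 at P10; the myosin heavy chain pair is widened by 1 library at 4w.

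A further exchange within a family was that of ribosomal protein L3. Rpl3l, the muscle-restricted form, had 1660, 1815 and 1915 normalized counts in 4w WT, against 199, 159 and 246 in P10 WT, and the general form Rpl3 had 37.7, 87.0 and 108 in 4w WT, against 164, 207 and 204 in P10 WT. The ages did not overlap for either gene, and the log2 fold changes were 3.17 ± 0.13 and -1.42 ± 0.27 (SE). Rpl3 has near-identical copies in the genome, so its own level is uncertain. Cytosolic ribosomal proteins as a list moved little: 9 of 52 members were higher and 2 lower, with a median of 0.13 that became -0.12 with a common total, and 5 were higher without P10 WT replicate 1 or without 4w WT replicate 2. The table lists 81 such genes, and those that are no members lay below the minimum or on the X chromosome. Mitochondrial ribosomal proteins, in contrast, were higher for 66 of 75 members and lower for none, with a median of 0.53 (26 higher with a common total), among them Mrps35 (1.03) and Mrpl42 (1.00).

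The mitochondrial energy genes rose almost as a whole. Of 47 respiratory chain members 43 were higher and 1, Cox6a1, was lower, and all 18 members of the tricarboxylic acid cycle were higher. The medians were 0.71 and 0.65 on the log2 scale, and in KO 44 and 18 were higher. Sdhb, the iron-sulfur subunit of succinate dehydrogenase, had 9499, 9880 and 10752 normalized counts in 4w WT, against 4421, 5152 and 5443 in P10 WT, and Ndufs7 of complex I rose with a log2 fold change of 1.10. All but Ndufs7, Cox6a2 (1.42) and Cox7a1 (1.69) of the 43 rose by less than 2-fold. Among energy shuttles 11 of 15 were higher, with the mitochondrial creatine kinase Ckmt2 at 33582, 34224 and 35109 in 4w WT, against 10802, 12431 and 13769 in P10 WT, and the nucleotide carrier Slc25a4 at a log2 fold change of 1.17.

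Of 34 members for fatty acid uptake and oxidation 23 were higher and 5 lower (13 higher with a common total). Lpl, the lipase that frees fatty acids from circulating triglyceride, had 90339, 114080 and 123200 normalized counts in 4w WT, against 25410, 24762 and 27932 in P10 WT. That is a log2 fold change of 2.06 ± 0.15 (SE) with a wide gap between the ages. The triglyceride lipase Pnpla2 (1.17) and the oxidation enzymes Echs1 (1.21), Eci1 (0.90), Acadm (0.80) and Etfb (0.81) rose less.

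Of the 5 members that fell, Pdk4 and Acot1 are named after their values were seen. Angptl4, which inhibits Lpl, had 40.0, 67.9 and 31.3 normalized counts in 4w WT, against 371, 495 and 399 in P10 WT. Cpt1a, the liver-type enzyme that admits fatty acids to mitochondria, had 1112, 1412 and 1280 in 4w WT, against 1933, 1738 and 1838 in P10 WT. Both lay below P10 in every 4w library, with log2 fold changes of -3.22 ± 0.33 and -0.54 ± 0.11 (SE). Pdk4, which blocks glucose oxidation (-0.60), and the thioesterase Acot1 (-0.89) lost their calls without 4w WT replicate 1 (adjusted p = 0.11 and 0.16), and 3 members of the list were lower then. In KO the falls were -5.08 for Angptl4, -1.49 for Cpt1a, -2.37 for Pdk4 and -3.45 for Acot1, and 11 members of the list were lower there.

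Glucose genes rose too, with 14 of 20 members higher and 1 lower. Slc2a4, the insulin-responsive transporter GLUT4, had 6183, 6792 and 7240 normalized counts in 4w WT, against 1860, 1931 and 2169 in P10 WT (log2 fold change 1.76 ± 0.09, SE). Hk2 (1.01), the muscle phosphofructokinase Pfkm (0.94), the heart form of the fructose bisphosphate regulator Pfkfb2 (1.04) and the lactate carrier Slc16a1 (1.06) followed. The lower member, the lactate exporter Slc16a3, lost its call without P10 WT replicate 2 (adjusted p = 0.06).

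All 22 members for branched-chain amino acid catabolism were higher, with a median of 1.11. Aldh6a1, which handles the end of valine breakdown, had 5128, 5595 and 6422 normalized counts in 4w WT, against 1509, 1388 and 1693 in P10 WT. Ppm1k, the phosphatase that switches on the branched-chain keto acid dehydrogenase, had 4102, 4764 and 5968 in 4w WT, against 1136, 1059 and 1331 in P10 WT. The 4w libraries lay more than 3-fold above P10 in each case (log2 fold changes 1.90 ± 0.09 and 2.06 ± 0.12, SE). Mut (1.41), Ivd (1.57), Acadsb (1.34) and Mcee (1.08) rose with them. In KO 21 of the 22 were higher, with a median of 0.81.

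Excitation and calcium handling genes went both ways, with 27 of 43 members higher and 8 lower. Kcne1, a subunit of the slow delayed rectifier, had 185, 187 and 216 normalized counts in 4w WT, against 2193, 2112 and 1757 in P10 WT. Kcnd3, a subunit of transient outward potassium channels, had 353, 409 and 425 in 4w WT, against 72.2, 35.7 and 66.5 in P10 WT. Each pair of ages was fully apart, with log2 fold changes of -3.36 ± 0.15 and 2.80 ± 0.17 (SE), and KO gave -3.46 and 2.67. Kcnip2, the partner of Kcnd3 (1.02), Tmem38a (0.92), the calcium-binding Hrc (1.14) and the acetylcholine-gated Kcnj3 (1.64) rose, and the fetal T-type calcium channel Cacna1g (-1.27) and the gap junction protein Gja1 (-0.71) fell.

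Among transcriptional regulators, 6 of 21 cardiac factors were lower, near the 28.8% of all members, 2 were higher and 13 were not called. With a common total 12 were lower and none was higher. Sox4, like Sox11 a factor of progenitor cells, had 249, 137 and 145 normalized counts in 4w WT, against 1136, 1396 and 1107 in P10 WT. Gata4 (-0.66) and Tbx20 (-0.84), core cardiac factors, fell by less than 2-fold, and the calls of Hand2 (0.62) and Tbx5 (0.48) as higher were lost with a common total (adjusted p = 0.096 and 0.26), that of Tbx5 also without P10 WT replicate 2, 4w WT replicate 2 or 4w WT replicate 3 (adjusted p = 0.084, 0.058 and 0.064).

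Of 27 nuclear receptors and coactivators 15 were higher and 6 lower (8 and 7 with a common total). The fatty acid receptor Ppara had 2884, 3151 and 4059 normalized counts in 4w WT, against 1446, 1467 and 1559 in P10 WT. The thyroid hormone receptor genes moved apart: Thrb rose (log2 fold change 1.10, adjusted p = 5.1e-06) and Thra fell (-0.46, adjusted p = 9.6e-05). Rxrg (1.20) and the oxysterol receptor Nr1h3 (1.73) rose, while the retinoic acid receptor Rara (-0.82), the orphan receptor Nr2f1 (-1.28) and the coactivator Ppargc1b (-0.85) fell.

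Genes that respond to glucocorticoids rose nearly as a whole, with 15 of 17 members higher, none lower and a median of 1.87, and 15 were higher with a common total too. The transcription factor Zbtb16 had 2306, 2824 and 4211 normalized counts in 4w WT, against 197, 167 and 172 in P10 WT. Fkbp5, a chaperone of the glucocorticoid receptor, had 478, 577 and 1148 in 4w WT, against 100, 167 and 99.8 in P10 WT. Neither overlapped (log2 fold changes 4.07 ± 0.19 and 2.51 ± 0.25, SE), and 4w WT replicate 3 was the highest library for both. Cebpb (3.15), Sesn1 (1.87), Sult1a1 (1.88) and Klf9 (1.38) followed. Hsd11b1, named above among the largest rises, makes active glucocorticoid from its inert form. In KO 16 of the 17 were higher, with a median of 1.34.

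The circadian clock genes fell into opposite arms. The list counted 12 of 17 members higher and 4 lower. Arntl (BMAL1), the activator of the clock, had 12.2, 25 and 13.9 normalized counts in 4w WT, against 117, 139 and 127 in P10 WT, and its partners Clock (-0.92) and Npas2 (-1.49) fell with it, as did Nfil3 (-0.89), a repressor whose phase in the rodent clock is opposite to that of Dbp. Dbp, the output factor that Arntl and Clock drive, had 1300, 1477 and 1517 in 4w WT, against 213, 309 and 280 in P10 WT. Each of these 4w libraries lay outside the P10 range. Ciart (4.24), Per2 (1.95), Tef (1.88) and Nr1d2 (1.33), genes of the repressor arm or its outputs, rose, whereas Nr1d1 was at 296, 291 and 211 in 4w WT against 269, 305 and 230 in P10 WT (adjusted p = 0.96). The counts in KO were also 12 higher and 4 lower. As the hour of collection is not given, age and hour cannot be told apart for this list. The same limit holds for the other results, the glucocorticoid-responsive genes among them.

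The extracellular matrix fell. Of 21 collagen members 19 were lower, with a median of -1.61, and 1, Col8a1 (0.69), was higher until a common total was used (0.44, adjusted p = 0.062). Of 38 matrix proteins and matrix enzymes 25 were lower and 4 higher. Col1a1, the main fibrillar collagen chain, had 2001, 1451 and 1422 normalized counts in 4w WT, against 13110, 11363 and 10214 in P10 WT. Eln, the elastic fibre protein, had 529, 371 and 399 in 4w WT, against 4282, 5198 and 3162 in P10 WT. No 4w library came near P10 for either gene (log2 fold changes -2.84 ± 0.16 and -3.27 ± 0.16, SE). Col3a1 (-2.16), the basement membrane chains Col4a1 (-1.52) and Col4a2 (-1.38), fibronectin (Fn1, -2.60), periostin (Postn, -2.74), the crosslinking enzyme Lox (-2.38) and the collagenase Mmp14 (-2.88) fell as well. Timp3, which inhibits such proteases, rose (1.48), and so did the prolyl hydroxylases P4ha1 (0.60) and P4ha2 (1.00).

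The summed level of 10 fibroblast markers was 31735 to 33458 in 4w WT and 30504 to 33879 in P10 WT, which overlapped. Col1a1, 1 of the 10 and a large part of the sum at P10, fell 7.17-fold, and its fall was offset in the sum by markers that rose. Of these markers 3 were higher and 6 lower, with a median log2 fold change of -0.56, so the sum does not show a stable share of fibroblasts. Endothelial markers summed to 15913 to 19010 in 4w WT and 25991 to 26409 in P10 WT, with 8 of 10 lower and none higher. Cardiomyocyte markers summed to 1188100 to 1376200 in 4w WT and 829340 to 912150 in P10 WT, with 10 of 12 higher and none lower, and markers of atrium, which a ventricle sample could include, overlapped (2607 to 3848 in 4w WT and 1352 to 5382 in P10 WT). The part of these shifts in the results for single genes was not tested.

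Immune genes were the other large group on the rising side. Of 32 members for interferon response and antigen presentation 27 were higher and none lower, with a median of 0.78 (16 higher with a common total). Ifit3, an antiviral effector induced by interferon, had 141, 101 and 106 normalized counts in 4w WT, against 19.7, 27.4 and 20.3 in P10 WT. H2-Aa, a class II antigen-presenting chain, had 198, 184 and 212 in 4w WT, against 29.1, 57.2 and 41.4 in P10 WT. Both were fully separated (log2 fold changes 2.32 ± 0.18 and 2.24 ± 0.18, SE). Ifit1 (2.01), Iigp1 (2.11), H2-Ab1 (1.89) and the class I chain H2-K1 (1.48) rose too, and in KO 29 of the 32 were higher.

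Macrophage markers moved in the same direction. Of 11 markers 10 were higher and none lower, and their sum was 4910 to 5587 in 4w WT and 2060 to 2509 in P10 WT. Cd163, a scavenger receptor of resident tissue macrophages, had 453, 346 and 454 normalized counts in 4w WT, against 32.8, 18.3 and 43.8 in P10 WT, and Lyve1 (2.52), Timd4 (2.31) and C1qa (1.39) rose with it. Csf1r, which every macrophage carries, rose by only 0.55 on the log2 scale, and Ccr2, of monocyte-derived cells, was at 44.4, 42.9 and 41.8 in 4w WT against 24.4, 86.3 and 43.8 in P10 WT (adjusted p = 0.86). Summed granulocyte markers were 11.1 to 21.4 in 4w WT and 42.2 to 163 in P10 WT, and lymphocyte and thymocyte markers 11.9 to 19.7 and 62.8 to 139, with P10 WT replicate 2 highest in both. The part of macrophages in the interferon list was not tested.

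Promoters of 2 interferon-response genes are shown, chosen among called members because their printed bases hold the element described next. GAAA followed by any 2 bases and GAAA again, the core of the interferon-stimulated response element read by the IRF and STAT factors, occurred in 12 of 24 promoters of the list (50%), against 2.94% of all 9458. In Ifit3 (chr19:34583329-34583528) and Ifit1 (chr19:34640689-34640888), both on the plus strand of GRCm38.p6 in RefSeq, the 200 bases before the start held 2 matches each, in capitals, here on the opposite strand.
Ifit3: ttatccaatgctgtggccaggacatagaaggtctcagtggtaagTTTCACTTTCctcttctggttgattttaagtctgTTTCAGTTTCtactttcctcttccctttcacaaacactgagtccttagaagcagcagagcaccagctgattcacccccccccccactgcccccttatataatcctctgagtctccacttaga
Ifit1: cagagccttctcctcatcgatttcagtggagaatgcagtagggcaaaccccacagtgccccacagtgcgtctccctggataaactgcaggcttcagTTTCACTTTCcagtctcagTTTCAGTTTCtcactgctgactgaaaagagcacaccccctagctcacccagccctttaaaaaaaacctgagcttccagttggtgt

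Growth factor and Wnt genes showed no single direction with the authors' size factors. Of 33 growth factors and receptors 11 were higher and 14 lower (7 and 18 with a common total). Igf1, the insulin-like growth factor of postnatal life, had 887, 763 and 712 normalized counts in 4w WT, against 2352, 2377 and 2037 in P10 WT, so both insulin-like growth factors of the ventricle fell. The apelin receptor Aplnr (-2.14) and the binding protein Igfbp4 (-0.91) fell, and Vegfb (0.85), Angpt1 (1.73), Igfbp6 (1.86) and Nrg4 (2.15) rose. Of 23 Wnt pathway members 8 were lower and 3 higher (12 and 3 with a common total). Those higher were Wnt11 (1.84), Wnt5a (0.88) and the antagonist Sfrp5 (1.37, adjusted p = 0.069 without P10 WT replicate 1 and 0.051 without 4w WT replicate 2), against falls of Sfrp2 (-2.42), the receptor Ror2 (-1.93) and Fzd1 (-1.11). Shisa3, the Wnt antagonist named in the title of the series, was at 86.6, 41.7 and 34.8 in 4w WT against 59.1, 87.9 and 41.4 in P10 WT, which overlapped (adjusted p = 0.51).

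Splicing regulators changed by less than 2-fold in every case. Of 20 members 10 were lower and 6 higher (12 and 2 with a common total). Ptbp1, which holds muscle and neuronal exons out, had 397, 313 and 319 normalized counts in 4w WT, against 607, 663 and 634 in P10 WT. Rbfox1, which promotes muscle exons, had 1061, 977 and 1108 in 4w WT, against 605, 456 and 557 in P10 WT. Neither overlapped (log2 fold changes -0.89 and 0.97). Ptbp3 (-0.56) and Srsf3 (-0.62) fell, and Rbm24 (0.51, not called with a common total, adjusted p = 0.13) and Mbnl2 (0.61) rose.

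The third age shows which of these levels had settled by 4w. From 4w WT to 20w WT, a contrast that shares the 4w libraries, 13.4% of members were higher and 11.7% lower at 20w. Collagens (19 of 21), clustered histones (44 of 51) and mitosis genes (26 of 33) were lower at 20w than at 4w. Col1a1 was at 11562 ± 1458 in P10, 1625 ± 326 in 4w and 582 ± 8.7 in 20w WT (SD, n = 3 each), and Mki67 at 3671 ± 300, 549 ± 231 and 190 ± 39.7. Glucocorticoid-responsive genes (0 higher and 1 lower of 17) and the respiratory chain (0 higher and 9 lower of 47) showed no further rise, whereas 11 of 22 branched-chain amino acid genes and 11 of 34 fatty acid genes were higher at 20w than at 4w. Bdh1 was at 8.6 ± 3.0 in P10, 342 ± 98.8 in 4w and 1928 ± 134 in 20w WT, and Kcne1 at 2020 ± 232, 196 ± 17.1 and 52.6 ± 9.0.

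**Figure D5:**
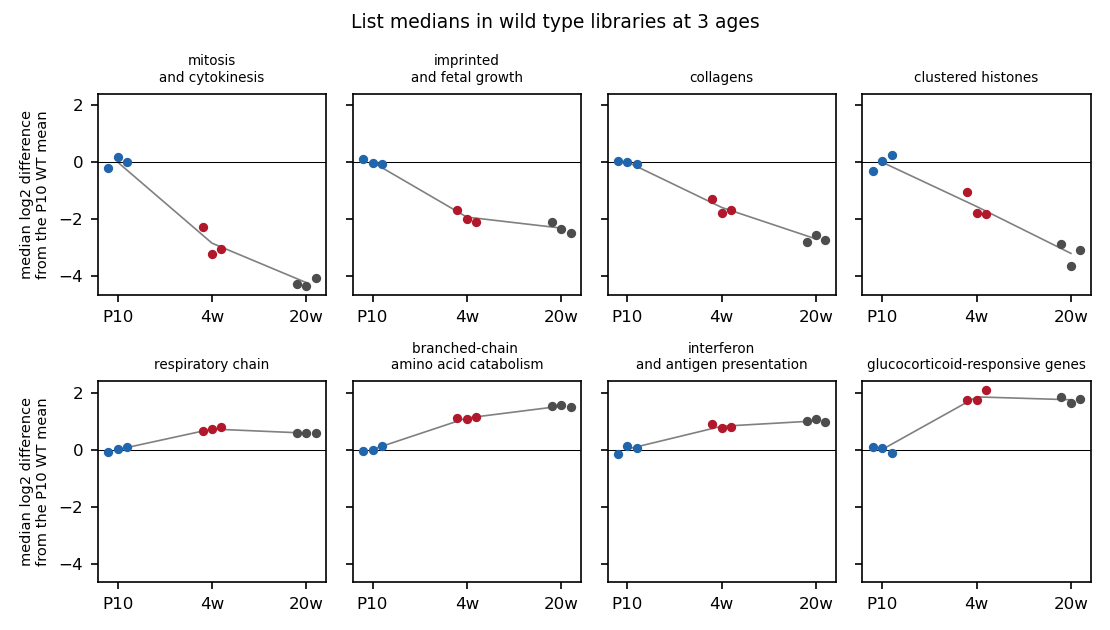
For each of the lists shown, points are the WT libraries at P10, 4w and 20w, and the y axis is the list's median log2 difference from the P10 WT mean. Division, collagen and histone lists continue downward at 20w, while the respiratory chain and glucocorticoid-responsive lists stay near their 4w level.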

How the data were processed

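RNA of cardiac ventricles was sequenced in 18 libraries, 3 for each of 2 genotypes at 3 ages. The authors deposited normalized read counts per gene, a signal without logarithm, in 1 table, with Bowtie2 2.0, DESeq2 and mm9 per the submitters' processing notes. The labels state no read counter, strand setting or annotation. Every deposited value was a whole multiple of its library's smallest value (100.0% within a tolerance of 0.001), so read counts and library totals could be recovered. Chromosomes and transcript lengths came from GRCm38 gene models by symbol (99.7% of members), and no mm9 coordinate is given. Promoters came from RefSeq.

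The difference between ages was tested with limma 3.58.1 (R 4.3.3) on log2(value + 1), with a mean for each of the 6 groups, a trended prior and Benjamini-Hochberg adjustment over the 13032 genes with a mean of at least 10. Fold changes are on that scale, which understates those of low genes, and the ± after a log2 fold change is its standard error. The threshold for a call was an adjusted p under 0.05. The procedure was tested on simulated data. Alternatives were other pseudocounts, filters and scaling, edgeR 4.0.16 and DESeq2 1.42.0 on the recovered counts, library weights, a replicate block, the 6 WT libraries alone and the omission of each of those 6 libraries. The omission of 4w KO replicate 2 was chosen after seeing the data. Isoform pairs were compared by the log2 ratio within a library with an exact permutation test.

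The members and the 25 gene lists were chosen with earlier results of these data known. Named were the 12 highest and 12 lowest fold changes among called members with a mean of at least 50 and no overlap between ages, up to 6 members of each list with the smallest adjusted p in its main direction and 3 in the other, and the isoform pairs. The marker genes come from the fixed marker lists. Acot1, Cdkn1c, Fkbp5, Igf2bp3, Kcnj3, Mcm5, Mcm7, Myom1, Ndufs7, Nfil3, Nr1d1, Nrg4, Pdk4, Postn, Ppargc1b, Shisa3 and Thrb were named after their values were seen. Levels of different genes were compared per kilobase of transcript only. Some members that the lists hold are not reported here.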

Additional observations from a re-analysis of the deposited data

Results flagged for a closer look

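The effect of age differed between WT and KO mice, by a test of the difference itself (limma, 4w minus P10 in WT minus the same in KO, adjusted over all genes tested), for 11 of the genes named in the report by its rule. The difference was positive, meaning a larger rise or a smaller fall in WT, for Klf15 (1.98 on the log2 scale, adjusted p = 0.0013), Cpt1a (0.95, 0.0027), Aldh6a1 (0.78, 0.0047), Echs1 (0.58, 0.018), Esr1 (6.08, 0.018), Bdh1 (1.99, 0.020), Sesn1 (0.54, 0.022), Ces1d (1.26, 0.023) and Sult1a1 (0.74, 0.026). It was negative for Hk2 (-0.52, 0.028) and Rrm1 (-0.58, 0.044). Without 4w KO replicate 2, the library with the high Rn45s share, 5 of the 11 were still called: Klf15 (1.72, adjusted p = 0.0031), Cpt1a (0.85, 0.011), Aldh6a1 (0.80, 0.013), Esr1 (6.34, 0.039) and Ces1d (1.31, 0.048). The other 6 were then at an adjusted p of 0.054 to 0.082. Pdk4 and Acot1, which were named after their values were seen, differed too, by 1.77 (adjusted p = 0.0051) and 2.56 (0.0065). Klf15 is itself the gene whose function the KO mice lost.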

How the results depend on the processing

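The number of members called, 7271, was 6440 to 7022 when 1 WT library was left out, 7367 with edgeR's quasi-likelihood test, 7085 with DESeq2, 7964 with library weights and 7120 with the 6 WT libraries alone. It was 7248 and 7313 with pseudocounts of 0.5 and 5, 7540 of 18706 with no filter and 6378 of 10516 with a mean of at least 50. Scaling to a common library total gave 6116 calls, with 1536 instead of 3646 higher, and the sign of Rps3 turned (-0.0014, adjusted p = 0.99). With that scaling 14 of 50 list counts moved by over 1.5 times, and among the genes named the calls of Actc1, Cpt1b, Ldha and Myl2 were lost (adjusted p = 0.43, 0.20, 0.46 and 0.070), while Hk1 became called (0.028). The clustered histones called lower were 24 with a mean of at least 50, since fewer were tested. Acta1 was called without P10 WT replicate 2 (1.80, adjusted p = 0.0029). Same-numbered 4w and P10 WT libraries deviated with correlations of -0.099, -0.041 and 0.10, so the numbers do not pair them, and the replicate block gave 7136 calls. The share of WT calls made the same way in KO was 76.0% without 4w KO replicate 2, an omission chosen after seeing the data, against 81.3%. With 3 libraries an age, the median standard error was 0.125 on the log2 scale and a difference of only that size would not be called.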

Other observations

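Markers of cell types that a ventricle sample could carry along were read in all 6 WT libraries. Adipocyte markers summed to 61.5 to 75.5 normalized counts in 4w WT and 0 to 2.49 in P10 WT, and Cfd (adipsin), one of them, was listed at 0 in every P10 WT library. Nerve and Schwann cell markers summed to 442 to 491 in 4w WT and 977 to 1073 in P10 WT, but their 6 members went both ways, with 2 lower, 1 higher and log2 fold changes of -2.94 to 2.15 around a median of -0.04. Lung epithelium markers were at 0 to 1.19 in 4w WT and 0 to 0.83 in P10 WT.

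Letters of other known elements were counted in the same promoter windows. CTA and TAG with any 4 bases between them, a form of the site of MEF2 factors, occurred in 6 of 28 sarcomere promoters (21.4%), against 3.2% of all members with a promoter. CACGTG, the E-box of the clock activators, occurred in 5 of 15 clock promoters (33.3%), against 10.2% of all.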
